A study of Mus musculus with 6 samples.

Results

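Of the 45037 probe sets tested on the mouse array, 9160 had no gene symbol in the platform annotation supplied with the values, and these unnamed probe sets are described here. They were taken by that absence alone: an id was a member if the annotation did not list it, after the 64 control probe sets of the array had been set aside. The annotation gave at least 1 symbol to the other 35877, called named probe sets below. An unlisted id is unnamed in this annotation, which does not mean that it lacks a gene, and several members may report the same transcript. The RNA came from endothelial cells of Matrigel plugs (basement membrane gels) implanted in the abdomen (intraperitoneally) of nude mice of the Balb/c strain, which lack a thymus and so most T cells. Control plugs held no recombinant microfibrillar-associated protein 5 (MFAP5, a glycoprotein of elastic fibres), and MFAP5 plugs did. Each group had 3 samples on 1 array each. The labels do not say how the cells were isolated from the plugs or whether each sample was 1 animal, so the limma p-values measure the spread between these samples, which may be technical.

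A probe set is a group of short oligonucleotides read together as 1 signal. On this type of array most were designed against clusters of expressed sequence tags (ESTs, single-pass reads of cDNA clones) as well as full-length cDNAs, near the end of the transcript that carries the poly(A) tail. Probe sets that no gene model claims can lie in long 3' untranslated regions, in introns of unspliced RNA, in antisense or non-coding transcripts, or in clones that were never assigned. The ending of an id says how specific the design was. The ending _at marks probes meant for 1 transcript, _a_at probes shared by transcripts of 1 gene, _s_at probes shared by transcripts of several genes, and _x_at probes of which some resemble unrelated transcripts.

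Values are log2 signals relative to each probe set's median over the 6 arrays, so they compare arrays but hold no level, and neither the endothelial label nor detection could be checked from levels. With 6 arrays such centring makes the middle pair of values of a probe set mirror images, so where the groups do not overlap, the control and the MFAP5 value nearest to each other have the same size and opposite sign. Control replicate 1 stood apart: across the unnamed probe sets, which are not independent, its correlation with control replicates 2 and 3 was 0.15 and 0.17, against 0.56 between replicates 2 and 3. Across the named ones it stood further apart, at -0.074 and -0.025 against 0.71, so this array weighs unequally on the 2 classes compared below. The bacterial spike-ins of the hybridization were at -0.32 on control replicate 1, 0.64 to 0.65 on the other controls and -0.038 to -0.0065 on the MFAP5 arrays, so by them control replicate 1 was nearer to the MFAP5 arrays than the other controls were. The 3 MFAP5 arrays had lower signals of all 10 measured adipocyte markers, with list medians of -3.37, -2.48 and -1.04 against 1.16, 1.39 and 1.33 in the controls, and higher signals of all 12 immediate early and stress genes, with medians of 0.28 to 0.58 against -0.45 to -0.33. The 3' signal of beta-actin relative to its 5' signal was also higher there, at 0.036 to 0.14 against -0.053 to -0.0048, while the same measure of Gapdh overlapped, at -0.038 to 0.086 against -0.16 to 0.033. Of 20 probe sets of endothelial markers limma called 0, with 5 lower and 0 higher at an unadjusted p under 0.05. Every difference below shares these 3 arrays, and the part of those markers and of the RNA ends in it was not tested.

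Unnamed probe sets that changed mostly rose. With MFAP5, 364 of the 9160 were higher and 55 lower (limma, Benjamini-Hochberg adjusted p under 0.05, MFAP5 minus control, n = 3 per group). These are 3.97% and 0.600% of the members, where all tested probe sets gave 1.56% higher and 1.72% lower, or 3.28% in either direction. Among probe sets with a symbol the order was the other way round, with 340 higher (0.948%) and 719 lower (2.00%). Unnamed probe sets were thus 20.3% of all those tested, 51.7% of the 704 called higher and 7.11% of the 774 called lower. No test of this difference between the classes was made, because probe sets of 1 array are not replicates. These counts depended on single arrays. Leaving out control replicate 1 raised them to 632 higher and 367 lower members, leaving out control replicate 2 lowered them to 78 and 26, and leaving out control replicate 3 gave 56 and 25. With MFAP5 replicate 1 removed 193 members were higher and 33 lower, with replicate 2 removed 334 and 42, and with replicate 3 removed 175 and 49. The unnamed share of the calls upward was 22.4% without control replicate 1, near their share of the array, and 48.1% to 62.2% without any other array. In bulk RNA, fewer cells of a type and less RNA per cell cannot be told apart.

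Large rises were more frequent among the members than large falls, while their median was near 0. The median log2 difference of the unnamed probe sets was -0.015, against -0.063 for those with a symbol and -0.054 over all tested, and 47.1% of unnamed and 38.9% of named probe sets had a difference above 0. The sign of the members' median depended on the scaling: it was 0.019 after centring each array, 0.026 after quantile normalization and 0.014 with the spike-in covariate. Their 6 array medians, -0.040, 0.028 and 0.0091 in control replicates 1, 2 and 3 and -0.010, 0.0076 and 0.0088 in MFAP5 replicates 1, 2 and 3, overlapped between the groups. Of the members, 209 (2.28%) were higher by a log2 difference of at least 1 and 41 (0.448%) were lower by as much, a description with no test. The shares over all tested were 1.08% and 0.944%, and those of probe sets with a symbol 0.778% and 1.07%. All 3 MFAP5 values lay above all 3 control values in 14.9% of the unnamed probe sets and below them in 9.37%, where the whole array gave 9% and 14.2%. The spread within groups was alike in both classes, with a median SD of 0.179 for unnamed and 0.178 for named probe sets.

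**Figure D1:**
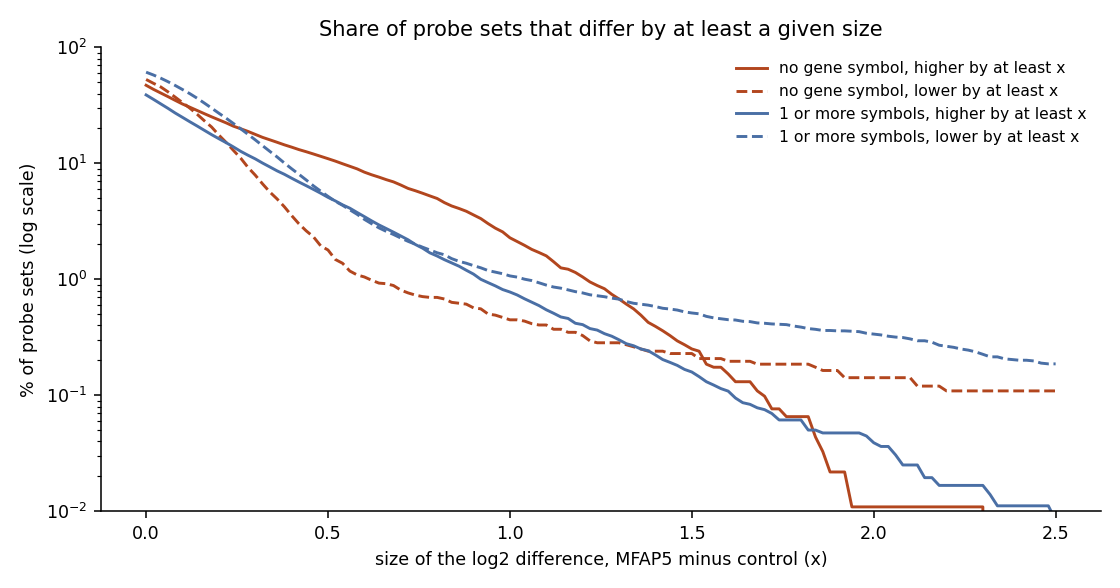
Percentage of probe sets (vertical, log scale) whose log2 difference, MFAP5 minus control, reaches at least the size on the horizontal axis, upward (solid) or downward (dashed), for probe sets without a symbol (brown) and with 1 or more (blue). At a size of 1 the solid brown line stands at 2.28% and the solid blue line at 0.778%, while the dashed lines stand at 0.448% and 1.07%.

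The members differed by the ending of their ids. Most were of the plain _at kind, 8600 of them, and of these 356 (4.14%) were higher and 45 (0.523%) lower. Named _at probe sets numbered 27482, with 1.05% higher and 1.91% lower. The other endings held 560 members, of which 8 (1.43%) were higher and 10 (1.79%) lower. Of the 8395 named probe sets with these endings 0.619% were higher and 2.32% lower. With these endings pooled, the unnamed thus had the larger share higher and the smaller share lower. By a log2 difference of at least 1, with no test, 13 of the 560 (2.32%) were higher and 9 (1.61%) lower, against 0.786% and 1.22% of the named. By ending, 1 of 196 _a_at members was higher and 3 were lower. Of 112 _s_at members 3 were higher and 6 lower, and of 252 _x_at members 4 were higher and 1 lower. The order of the shares lower was reversed for _s_at, with 5.36% of unnamed and 2.63% of named probe sets lower. For _a_at these shares were 1.53% and 2.86%, and for _x_at 0.397% and 1.01%. The called members with these endings were few but large when they fell: the 10 that were lower ran from -4.05 to -0.61 with a median of -2.07, while the 8 that were higher ran from 0.86 to 1.85. Since _s_at and _x_at probe sets share probes with other transcripts, which transcript changed cannot be read from them. Leaving out control replicate 1 gave 575 higher and 334 lower _at members and 90 calls with the other endings. Leaving out control replicate 3 gave 54, 20 and 7.

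The members also differed by the number in the id. The rule divides the ids at a boundary, with member ids from 1415793 to 1434669 below it and from 1434693 to 1460745 above it. Below it there were 2014 members, of which 26 (1.29%) were higher and 32 (1.59%) lower. Among the 7146 members with later ids, 338 (4.73%) were higher and 23 (0.322%) lower. The _at members alone were split likewise: of 1784 below the boundary 24 (1.35%) were higher and 25 (1.40%) lower. Of the 6816 later _at members 332 (4.87%) were higher and 20 (0.293%) lower, so the upward lean of the _at calls lay in the later ids. Named probe sets moved the same way between the ranges but less far, from 0.648% higher and 2.51% lower in the early range to 1.22% and 1.55% in the later one. With all 6 arrays, a larger share of unnamed than of named probe sets was called higher and a smaller share lower in both ranges. In the early range this order depended on the setting. Without control replicate 1, 3.87% of early unnamed and 5.51% of early named probe sets were higher, and with the arrays weighted by their spread 4.67% and 5.13%. With the boundary moved down, 2.98% of early unnamed and 2.81% of early named probe sets were lower. Among called members, which the threshold already selects for size, the higher ones had a median log2 difference of 0.98 in both ranges. The lower ones had medians of -1.15 and -1.21. Over all members, called or not, 0.993% of early and 2.64% of later ones rose by at least 1. Falls of that size were found in 0.993% and 0.294%. Without control replicate 1 the later members higher and lower were 554 and 228, and the early ones 78 and 139. Without control replicate 3 they were 51 and 15, and 5 and 10.

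Cut into 9 ranges of ids, a division made after the calls were known, the members called higher were concentrated between 1435001 and 1445000 and from 1455001 on. From 1440001 to 1445000, 146 of 2229 members (6.55%) were higher and 1 was lower, against 2.06% and 0.433% of the named probe sets beside them. In the range just below it, which starts at 1435001, the members' shares were 5.97% and 0.683%, and the named probe sets' 1.63% and 1.40%. This was the range with the highest member median, a log2 difference of 0.072. Here the groups did not overlap: the control arrays had member medians of -0.035, -0.025 and -0.018, the MFAP5 arrays 0.016, 0.018 and 0.042. From 1440001 to 1445000 they narrowly did not overlap either, with a highest control median of 0.0072 and a lowest MFAP5 median of 0.0073. In the ranges starting at 1415001 and 1420001 all MFAP5 medians of the members lay below all control medians. From 1455001 on, 4.78% of 1861 members were higher and 0.430% lower. The lowest ids were the reverse: from 1415001 to 1420000, limma called 0 of 214 members higher (13 at an unadjusted p under 0.05) and 8 (3.74%) lower, where 3.73% of the named ones were lower. The share called higher was larger in unnamed than in named probe sets in 8 of the 9 ranges, and the share called lower was smaller in 7 of the 9. The ranges were not matched to a map of the array.

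**Figure D2:**
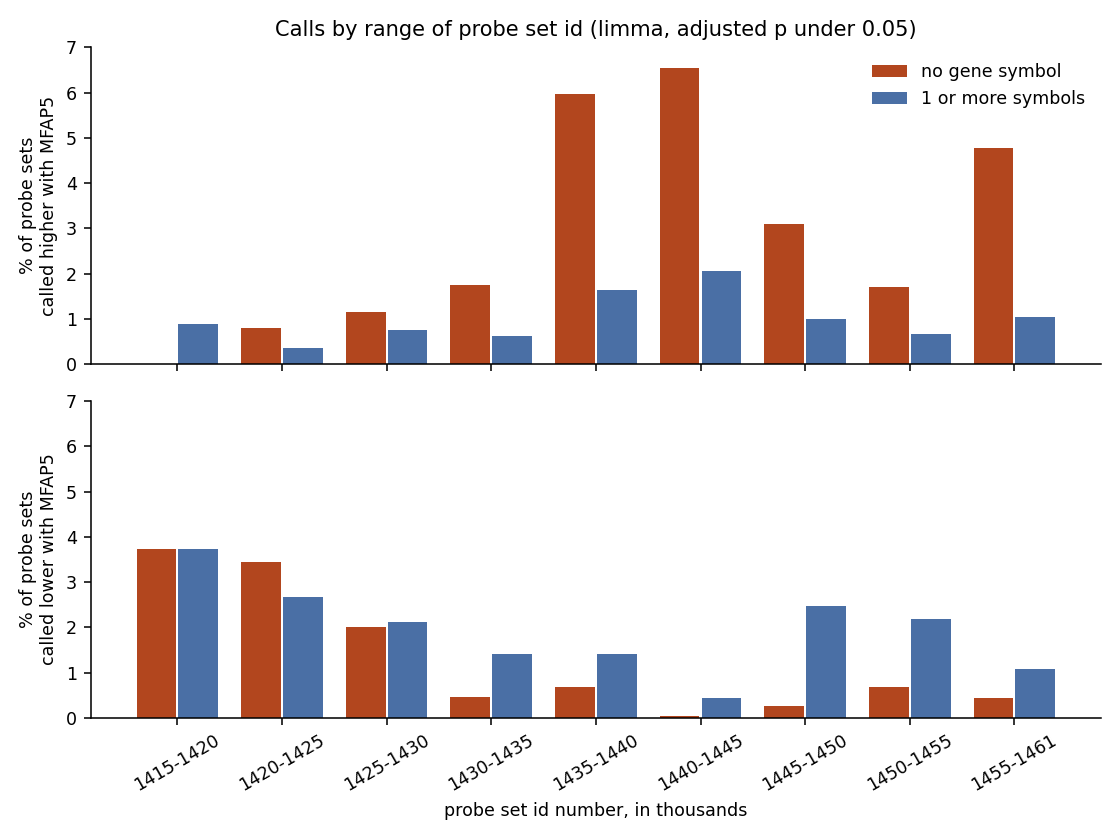
Percentage of probe sets called higher (top) and lower (bottom) with MFAP5 by limma in 9 ranges of id number, for probe sets without a symbol (brown) and with 1 or more (blue). The tallest brown bars of the top panel, 6.55% and 5.97%, stand between 1435001 and 1445000, and no member in the first range was called higher.

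The member with the largest rise was 1452418_at. In control replicates 1, 2 and 3 it had signals of -1.07, -1.10 and -1.10, and in MFAP5 replicates 1, 2 and 3 signals of 1.33, 1.07 and 1.27. The groups stood far apart and each was tight, and limma put the rise at 2.31 ± 0.12 on the log2 scale (SE, 3 arrays per group; adjusted p = 2.09e-04), which is 4.97-fold if the log base is 2. It passed the threshold whichever array was left out, with adjusted p between 2.66e-04 and 0.00552. The second, 1437917_at, had control signals of -0.79, -0.81 and -1.39 and MFAP5 signals of 0.83, 0.79 and 1.16. It rose by 1.93 (SE 0.19, n = 3 per group, limma adjusted p = 0.00225).

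Other rising members had 1 array that differed from the rest of its group. In 1442322_at the controls were close together, at -0.49, -0.33 and -0.51, while MFAP5 replicate 2 had 0.33 where replicates 1 and 3 had 1.70 and 1.73. Its rise of 1.70 (SE 0.34, n = 3 per group) had a limma adjusted p = 0.0348, and it missed the threshold without control replicate 2 or 3 or MFAP5 replicate 1 or 3 (adjusted p from 0.0939 to 0.154). For 1442710_at it was control replicate 1 that lay near the MFAP5 arrays: the controls stood at -0.22, -1.70 and -1.27 and the MFAP5 arrays at 0.81, 0.22 and 0.88, a difference of 1.70 ± 0.35 (limma adjusted p = 0.0400). It too missed the threshold without the same 4 arrays, at adjusted p from 0.113 to 0.180. The only _s_at probe set among the 10 largest rises, 1435137_s_at, showed this pattern as well, with -0.49, -1.62 and -1.74 in the controls against 0.49, 0.60 and 0.61. Its difference was 1.85 ± 0.29 (limma adjusted p = 0.0152, and 0.0788 and 0.0791 without control replicates 2 and 3).

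The remaining 5 of the 10 largest rises were 1440671_at, 1447411_at, 1442014_at, 1446475_at and 1458296_at, with log2 differences of 1.88, 1.84, 1.84, 1.75 and 1.71 and limma adjusted p from 0.00447 to 0.0157. All 10 had ids above the boundary. When control replicate 1, 2 or 3 was left out, 10, 3 or 4 of them passed the threshold, and when MFAP5 replicate 1, 2 or 3 was, 7, 10 or 8. The rise of smallest p among _a_at members was 1423555_a_at, at 1.27 ± 0.16 (limma adjusted p = 0.00624). Among _s_at members it was 1427932_s_at, at 1.10 ± 0.13 (adjusted p = 0.00488), and among _x_at members 1442760_x_at, at 1.25 ± 0.19 (adjusted p = 0.0141). The call of 1442760_x_at was lost without control replicate 2, control replicate 3 or MFAP5 replicate 1 (limma adjusted p = 0.0729, 0.0642 and 0.0522).

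The largest falls were deeper than any rise. The probe set 1417867_at had control signals of 1.32, 1.45 and 1.44 and signals of -5.82, -4.06 and -1.32 in MFAP5 replicates 1, 2 and 3. The controls lay within an SD of 0.073 of each other and the MFAP5 arrays had an SD of 2.27, with replicate 3 nearest to the controls. It fell by 5.14 (SE 0.91, n = 3 per group, limma adjusted p = 0.0224), or 35.2-fold, and it missed the threshold without control replicate 2 or 3 or MFAP5 replicate 2 (adjusted p = 0.107, 0.111 and 0.0590). Next came 1422526_at, with control signals of 1.38, 1.38 and 1.47 and MFAP5 signals of -4.02, -3.02 and -1.38. Its difference was -4.22 ± 0.54 (limma adjusted p = 0.00617), and it passed without each array in turn.

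In 8 further members a fall of the same shape was seen, with MFAP5 replicate 3 the nearest to the controls in each. The falls of 1443823_s_at, 1452308_a_at, 1425826_a_at, 1455918_at and 1450643_s_at were -4.05, -4.01, -3.81, -3.72 and -3.44, with limma adjusted p between 0.00250 and 0.00637. Those of 1420465_s_at, 1436453_at and 1423883_at were -3.02, -2.99 and -2.93 (adjusted p = 0.0412, 0.0381 and 0.00810). In 1436453_at control replicate 1 had 2.19 where the other controls had 0.52 and 0.61. Of the 10 largest falls, 10, 7 or 7 passed when control replicate 1, 2 or 3 was left out, and 8, 8 or 10 when MFAP5 replicate 1, 2 or 3 was. The fall of smallest p, 1455136_at, had another shape. Control signals of 0.91, 1.33 and 1.14 and MFAP5 signals of -0.91, -1.32 and -0.99 gave -2.20 ± 0.16 (limma adjusted p = 8.50e-04), with replicate 3 between the others. The 1 _x_at member that fell was 1434110_x_at, at -0.92 ± 0.17 (adjusted p = 0.0234), and it missed the threshold without control replicate 2 (limma adjusted p = 0.104) and, with a higher p, without control replicate 3.

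**Figure D3:**
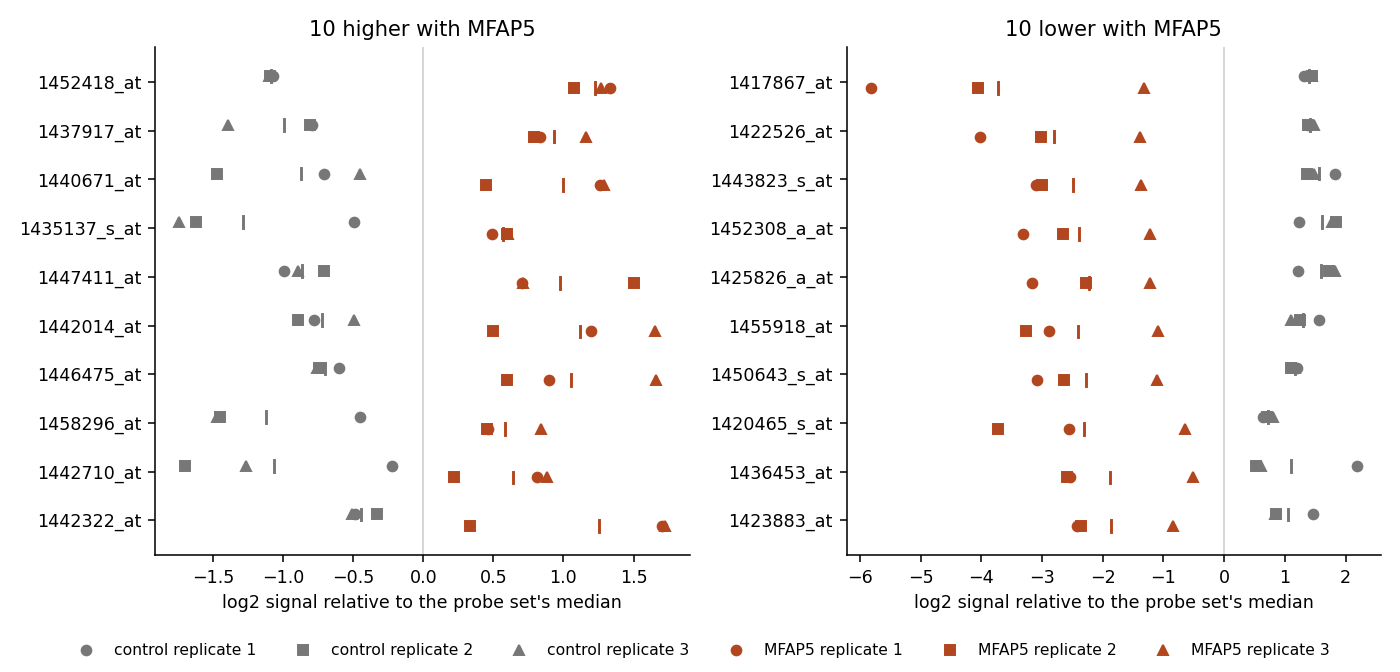
Relative log2 signal (horizontal) of the 10 unnamed probe sets with the largest rise (left) and fall (right) among those called, for each control array (grey) and MFAP5 array (brown), with replicates as circle, square and triangle and group means as short vertical lines. On the right the triangle of MFAP5 replicate 3 is the brown symbol nearest to the controls in all 10 rows, as at -1.32 in the top row against -5.82 for replicate 1.

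Each of these members was set beside the most similar named probe set, by Euclidean distance over the 6 arrays on the log2 scale. Only named probe sets with 1 symbol were searched. With so few arrays this is a likeness of values and nothing more. The nearest to 1452418_at was a probe set of Meg3, a long non-coding RNA of an imprinted locus, at a distance of 0.70 and with a smaller rise of 1.81. For 1435137_s_at it was Ptgs2, an inducible cyclooxygenase, at 0.45, for 1458296_at Klf6, a zinc-finger factor, at 0.26, and for 1442322_at the chemokine gene Cxcl1 at 0.35. Both 1442014_at and 1446475_at were nearest to Slfn4, of the Schlafen family, at 0.48 and 0.32. The other large rises, 1437917_at, 1440671_at, 1447411_at and 1442710_at, were nearest to Trim30d, Cblb, Tmtc2 and Ifi44l, at 0.59, 0.61, 0.39 and 0.45. Among the falls, 1422526_at lay closest to a named probe set, at 0.14 from Mrap, an accessory protein of melanocortin receptors. The nearest to 1417867_at was Retn, which encodes resistin, at 0.82, and to 1452308_a_at and 1425826_a_at probe sets of Dgat2, an enzyme of triglyceride synthesis, at 0.64 and 0.48. Chchd10 was the nearest to 1455918_at, 1450643_s_at and 1436453_at, Tmem45b to 1443823_s_at and Tshr to 1423883_at. The nearest to 1420465_s_at was a probe set of Lcn2 that was itself not called. For 1436453_at and 1420465_s_at no probe set with 1 symbol was nearer than 1.44 and 1.28, so their patterns had the least close such match among the 10. Outside the largest rises and falls, 1423555_a_at and 1442760_x_at were nearest to Shox2, 1427932_s_at to Rbm25, 1434110_x_at to Mrps22 and 1455136_at to Tshr.

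In the largest falls MFAP5 replicate 3 was nearest to the controls, and this was common among all members called lower. Of these 55, MFAP5 replicate 3 had the highest signal of its group in 39 (70.9%), and in 24 (43.6%) the signals stood in the order replicate 1, 2, 3 from low to high. The same order is that of the adipocyte marker medians given above. In the 719 named probe sets called lower, replicate 3 was highest in 56.6% and the order 1, 2, 3 was found in 33.9%. Members called higher also had their highest signal in replicate 3, in 273 of 364 (75.0%), against 65.3% of the named ones. The order 1, 2, 3 was found in 31.9% of these members and 24.4% of the named ones. In 200 of these 364 the lowest MFAP5 signal was that of replicate 2, as in 172 of the 340 named probe sets called higher. The highest control signal was that of control replicate 1 in 171 members (47.0%), against 53.5% of the named ones.

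Classes of named probe sets, chosen by kind of symbol, gene type or source sequence and not by likeness of values, were set beside the unnamed ones. Of 2335 probe sets whose single symbol was provisional (a RIKEN clone name, a predicted Gm or LOC gene or a sequence number), 7 (0.300%) were higher and 15 (0.642%) lower, both below the shares over all tested probe sets. Of 1985 whose gene is listed as other than protein-coding, 25 (1.26%) were higher and 7 (0.353%) lower. Beyond these few calls they leaned the other way: at an unadjusted p under 0.05, 87 (4.38%) were higher and 159 (8.01%) lower. Their median log2 difference was -0.086. Unnamed probe sets at that p were 1247 (13.6%) higher and 475 (5.19%) lower, where all tested gave 7.99% and 10.7%. This lean of the members depended on control replicate 1. Without it 1291 were higher and 1179 lower at that p, and with the arrays weighted by their spread 1536 and 1227. With any other array left out, 957 to 1242 were higher and 274 to 348 lower. For 32756 probe sets of protein-coding genes the shares called by limma were 0.934% higher and 2.12% lower. The shares differed by the source sequence of the named probe sets with 1 symbol, a comparison added after the calls were known. Those designed on an EST accession had 1.14% of 17300 higher and 1.26% lower, while those designed on a curated RefSeq transcript had 0.661% of 5897 higher and 3.49% lower. Accessions starting with AK had 0.382% higher and 1.58% lower, and those starting with BC 0.440% and 3.81%. Accessions of other kinds had 1.27% and 2.41%, and probe sets with none listed 1.39% and 2.03%. With later ids only, the EST-based shares were 1.32% and 1.04%, still well under the 4.73% of unnamed later ids called higher. The source accessions of the unnamed probe sets were not used here.

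The gap between unnamed and named probe sets varied with the fit. Without control replicate 1 the shares called higher were 6.90% and 6.10%, where all 6 arrays gave 3.97% and 0.948%. Weighting the arrays by their spread, which gave control replicate 1 the lowest weight of 0.339, gave 9.21% and 6.13% called higher, and 27.7% of the calls upward were then unnamed. Called lower without control replicate 1 were 4.01% of unnamed and 8.37% of named probe sets. By size alone, with no test, 2.85% of unnamed and 1.63% of named probe sets were higher by at least 1 without it, and 0.448% and 1.31% lower. With the spike-in level of each array as a covariate, 193 members were higher and 39 lower, and 54.5% of the calls upward were unnamed.

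**Figure D4:**
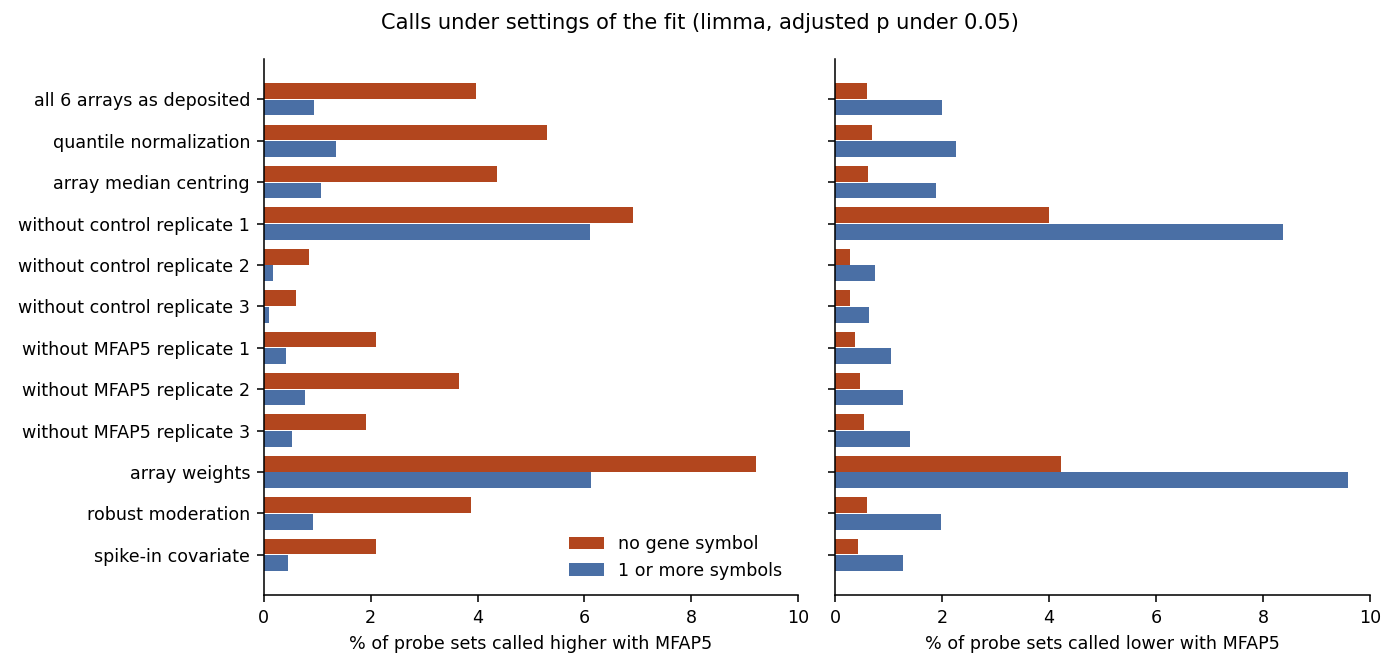
Percentage of probe sets without a symbol (brown) and with 1 or more (blue) called higher (left) and lower (right) by limma for all 6 arrays as deposited and under other settings of the fit. Of the rows shown on the left, the brown and blue bars differ least in proportion without control replicate 1, at 6.90% and 6.10%, while on the right the blue bar is the longer one in each row shown.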

How the data were processed

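The deposited table held log2 relative signals of 6 Affymetrix mouse arrays (45101 rows), centred by the authors on each row's median, as read from the values (largest absolute row median 5e-07). The authors used MAS5, per the submitters' processing notes; the sources used here do not give its settings, the log base or the direction, so base 2 and "higher means more signal" were taken. Centring left no level, so no offset and no filter on dim probe sets was possible. The number of arrays limits the precision.

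All 45037 probe sets except AFFX controls were fitted in R 4.3.3 by lmFit and eBayes of limma 3.58.1 (two-sided, Benjamini-Hochberg over all of them, threshold 0.05), without a replicate block. The code of the fit was run on simulated data with independent normal noise and planted differences. Those data had no outlying array and no centring by row median, so they say nothing on how the counts depend on single arrays. Symbols came from the platform annotation (35890 rows), updated through Entrez identifiers in RefSeq (GRCm38.p6), which gave a gene type for 34741 of 34945 probe sets with 1 symbol.

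The probe sets described singly are the 10 rises and 10 falls of largest log2 difference among calls with non-overlapping groups, and the smallest p in each direction for each ending, 25 in all. Members, marker lists and comparisons were chosen with earlier results of these data known. Markers of macrophages, neutrophils and fibroblasts had 0 of 15, 0 of 9 and 2 of 16 probe sets higher and 0, 4 and 1 lower by limma (0, 0 and 3 higher and 1, 4 and 2 lower at an unadjusted p under 0.05). Alternatives were quantile normalization, array centring, array weights, robust and no moderation, a replicate block, a spike-in covariate, a minimum difference of 1, other id boundaries and leaving out each array.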

Additional observations from a re-analysis of the deposited data

How the results depend on the processing

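Among the 13 alternatives that made calls, the share called higher was larger, and the share called lower smaller, in unnamed than in named probe sets in all 13. Counts moved far more: of 164 counts compared with those of the report, 75 stayed within 1.5 times. Leaving out 1 array at a time gave 56 to 632 higher and 25 to 367 lower members, and 34 to 2189 higher and 226 to 3002 lower named probe sets. By ending, _at members ran from 54 to 575 higher and 19 to 334 lower, and other endings from 7 to 90 calls. Early ids ran from 5 to 78 higher and 10 to 139 lower, and later ids from 51 to 554 higher and 14 to 228 lower.

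Array weights gave 844 higher and 387 lower members (793 and 351 for _at, 87 calls with other endings, 94 and 143 for early ids, 750 and 244 for later ids) and 2199 and 3438 named probe sets. Without moderation 0 probe sets were called in any class, with 881 members higher and 419 lower at an unadjusted p under 0.05, and 6433 probe sets over the array. A minimum log2 difference of 1 left 163 higher and 36 lower members (157 and 29 for _at, 11 and 19 for early ids, 152 higher for later ids) and 147 and 333 named ones. The spike-in covariate left 193 higher members (186 for _at, 175 for later ids), 18 lower early ids, and 161 and 456 named probe sets. With the id boundary moved down or up, 7 or 61 early members were higher. Quantile normalization gave 486 higher and 63 lower members and moved the median difference of all probe sets from -0.054 to -0.013. It left 88.5% of the calls among members and 37.4% of those among named probe sets upward, against 86.9% and 32.1%.

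The replicate block gave 480 higher and 67 lower members, 29 calls with other endings and 514 higher named probe sets. The replicate numbers share no stated origin, and deviations of same-numbered arrays correlated at 0.21, 0.055 and 0.085. The 25 members described singly kept their direction under every alternative, which for left-out arrays follows from groups that do not overlap. The cause of these movements was not tested.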
